A study of Mus musculus with 24 samples.

Results

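The 39 genes described here encode the Eph receptors and ephrins, the Slits and their Robo receptors, and the netrins with their receptors and draxin, and they were chosen by name from these protein families, 39 of the 20782 genes in the table. They comprise 9 EphA receptors, 5 EphB receptors, 5 ephrin-A and 3 ephrin-B ligands, 3 Slits, 3 Robo receptors, 2 netrins, 2 netrin-G proteins, 4 Unc5 receptors, Dcc and its relative Neo1, and Draxin. The tissue was the lumbar dorsal root ganglion of the mouse, where the somata of sensory neurons sit, and RNA-seq covered 24 libraries in 8 groups of 3. Embryonic ganglia were taken at E17.5 and at E12.5. From adults, ganglia L4 and L5 were taken after a peripheral lesion (the conditioned group) or after sham surgery. Adult lumbar ganglia were dissociated, plated at low density on laminin in Neurobasal-A with B-27, and collected at 6, 12, 24 and 36 h. No transgene or deletion is named for any group. Strain, sex, adult age, the interval between lesion and collection, and whether the 3 libraries of a group came from separate animals are not stated, so p-values measure only library-to-library spread, which may be technical. Cell sorting is named in the protocol of every library, with no word on whether embryos and operated adults were sorted too.

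Ephs are receptor tyrosine kinases, and ephrins are their membrane-bound ligands on neighbouring cells. EphA receptors mainly bind ephrin-A proteins, which are held by a lipid anchor, EphB receptors mainly bind ephrin-B proteins, which cross the membrane, and contact can signal into both cells and usually repels. Slits are secreted and repel axons through Robo receptors, and in the embryonic spinal cord of the mouse they also act in the branching of sensory axons. Netrin-1 attracts axons through DCC and repels them through Unc5 receptors, the membrane-anchored netrin-G proteins bind partners on other neurons instead, and draxin is a secreted repellent that binds DCC.

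Depth was 3.10 to 25.7 M reads per library, and the shallow libraries lay in several groups, with 3.10 and 4.61 M reads in E17.5 replicates 2 and 3, 3.65 M reads in 6 h culture replicate 3, 3.14 M reads in 12 h culture replicate 1 and 4.57 M reads in 24 h culture replicate 1. Values below are the deposited normalized read counts, given library by library in replicate order or as mean ± SD (n = 3), and changes are log2 differences ± SE on log2(value + 1), which understates changes of low genes. A gene rose or fell where limma gave an adjusted p (Benjamini-Hochberg over all genes tested) below 0.05. Intervals and limits set by reads cover counting error only. Of the neuron list of 10 genes, none was at 0 in a group, but Avil, which marks peripheral sensory neurons, averaged 26.5 at E12.5 and between 4209 and 5590 in the other 7 groups.

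Most of the guidance genes stood highest in the early embryonic ganglia. Of the 37 members other than Dcc and Robo3, 25 had their highest group mean at E12.5, and for 19 of these the 3 E12.5 libraries lay above those of the next group. Of 15874 genes with a value of at least 10 in at least 3 libraries, 31.0% were highest at E12.5, and 21.0% were highest there with no overlap. E17.5 was highest for 2 of the 37 (Epha10 and Efna5), sham ganglia for 3 (Ntng1, Ntng2 and Ephb6), and 36 h cultures for 3 (Epha2, Slit1 and Unc5a). The 6 h cultures were highest for 2 (Robo2 and Epha6), 24 h cultures for Epha5, and 12 h cultures for Efna1. In these groups other than E12.5 the libraries overlapped those of the next group, except for Robo2, whose 6 h libraries all lay above the sham ones. For Dcc no highest group is given, since its E12.5 values match a trimmed mean over the whole series, taken with E12.5 ranked highest. Robo3, a receptor of commissural axons, was near 0 in the 7 groups other than E12.5, with at most 11 reads in a library.

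Per kilobase of merged exons, the most abundant members differed between E12.5 and adult ganglia. At E12.5 the ephrin-B ligand Efnb1 had the highest mean, 490.1 ± 45.7 normalized counts per kb, within the spread of Ntn1 (428 ± 69.9) and followed by Efnb3 (391 ± 6.5), Draxin (377 ± 110.3) and Efnb2 (365 ± 29.0). The SD of Draxin covers the differences between Ntn1, Efnb3, Draxin and Efnb2. In sham ganglia Efna1 (151 ± 11.3 per kb) and Robo2 (143 ± 3.3) were closer than their spread, followed by Efna5 (119 ± 14.2) and Efnb2 (102 ± 5.1). Efna1 also led in lesion ganglia, with 196 ± 13.5 per kb, and at each culture time, with 305 ± 56.8 per kb at 6 h, 330 ± 36.7 at 12 h, 299 ± 20.9 at 24 h and 269 ± 7.6 at 36 h.

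**Figure D1:**
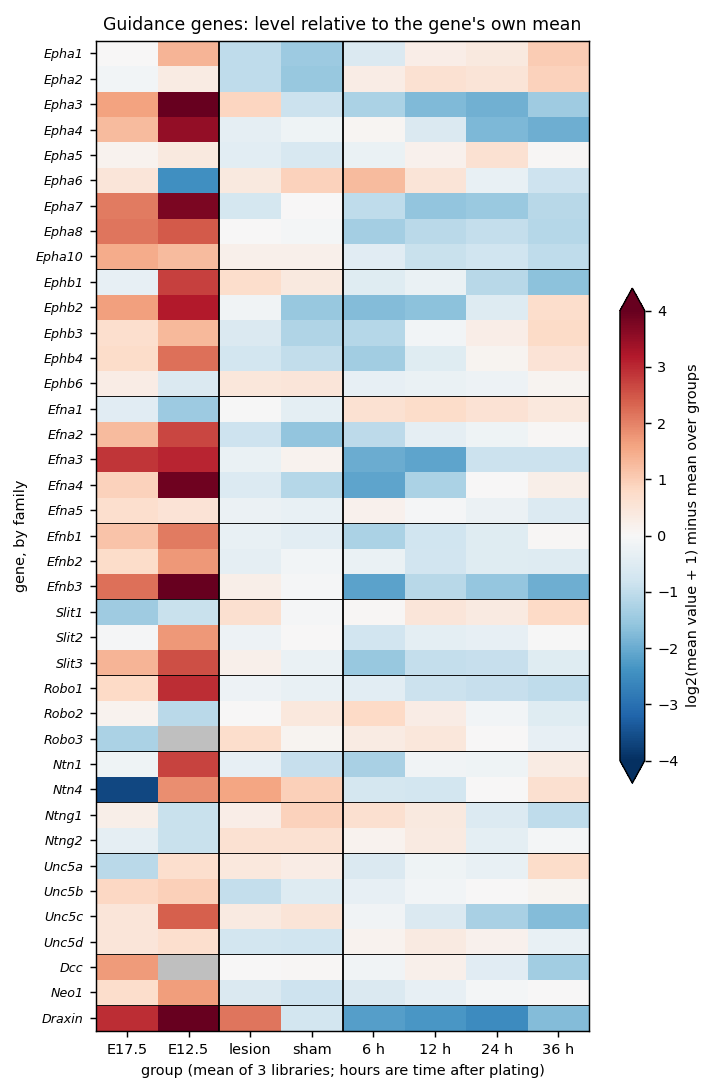
Level of each guidance gene (rows, by family) in each group (columns, mean of 3 libraries), as log2(mean value + 1) minus the gene's own mean over groups. Red is above and blue below that mean, and colours are cut at 4 in either direction. Grey marks Dcc and Robo3 at E12.5, whose values match a trimmed mean over all libraries with the E12.5 ones ranked highest. The E12.5 column is the reddest for 25 genes, while Epha6, Robo2, Efna1 and the netrin-G genes are blue there.

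Between the embryonic ages, most guidance genes were lower at E17.5 than at E12.5. Of 37 members tested, 22 fell, 5 rose and 10 were not called, so 73.0% were called, where 63.0% of all 14550 genes were (31.1% higher and 31.9% lower at E17.5). Their median log2 change was -0.99, beside -0.05 over all genes tested, and scaling by total reads moved the median of all genes by -0.10 with the same counts of members. The falls took in 4 of 9 EphA receptors, 4 of 5 EphB receptors, 2 of 5 ephrin-A and 3 of 3 ephrin-B ligands, 2 of 3 Slits and both netrins, and they also took in Robo1, Unc5a, Unc5c, Neo1 and Draxin. In every member called, the 3 libraries of E17.5 lay apart from the 3 of E12.5, as they did in 34.3% (higher) and 35.5% (lower) of all genes tested. In bulk samples such as these, fewer cells of a type and less RNA per cell cannot be told apart. The E12.5 and E17.5 libraries also carry library numbers from separate series, so age and series cannot be told apart.

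Among the Eph receptors, Epha3 (chromosome 16, 63543534 to 63864175, mm10) had 133, 131 and 109 normalized counts at E17.5, against 1203, 1041 and 1102 at E12.5. All 3 E17.5 libraries lay far below the E12.5 ones, a log2 change of -3.16 ± 0.14 (limma adjusted p = 8.0e-07). Ephb1 had 35.4, 35.3 and 34.7 at E17.5, against 327, 328 and 253 at E12.5, a change of -3.06 ± 0.18 (adjusted p = 2.6e-06). Epha4, which steers motor axons into the limb, had 284, 381 and 273 at E17.5, against 1658, 1469 and 1437 at E12.5. It fell by 2.29 ± 0.16 on the log2 scale (adjusted p = 5.0e-06). Epha7 and Ephb2 fell with changes of -1.70 ± 0.20 and -1.54 ± 0.21, and Ephb4, Epha1 and Ephb3 with -1.42 ± 0.23, -1.30 ± 0.38 and -0.61 ± 0.17. Epha1 rested on low values, 7.58 ± 1.01 at E17.5 and 20.7 ± 7.25 at E12.5, and was not called without E12.5 replicate 2 (adjusted p = 0.0974), with DESeq2 (0.0515) or with 1 spread over all libraries (0.0732), in a range from 0.0107 to 0.0974. Epha6 went the other way, with 102, 127 and 69.4 at E17.5, against 9.88, 15.4 and 11.5 at E12.5. The groups were far apart, and Epha6 rose by 2.90 ± 0.31 (adjusted p = 6.7e-05). Ephb6, which lacks kinase activity, rose as well (0.86 ± 0.19). Epha2, Epha5, Epha8 and Epha10 were not called and their libraries overlapped.

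Among the ephrins, Efna4 had 52.9, 38.8 and 27.7 normalized counts at E17.5, against 269.5, 254 and 419 at E12.5, a change of -2.96 ± 0.29 (limma adjusted p = 3.5e-05). An antisense gene shares 10.5% of its exon bases, and whether counting used strand is not stated. Efnb3 had 276, 226 and 314 at E17.5, against 1228, 1237 and 1267 at E12.5, a change of -2.20 ± 0.15 (adjusted p = 4.3e-06). The other ephrin-B genes fell by less, Efnb1 with -0.99 ± 0.21 and Efnb2 with -0.98 ± 0.11, and Efna2 with -1.46 ± 0.26. Efna1 was the ephrin that rose, with 254, 261 and 291 at E17.5, against 120.2, 117 and 162 at E12.5 (1.02 ± 0.18, adjusted p = 9.6e-04). Efna3 (183 ± 8.58 at E17.5 and 204 ± 23.3 at E12.5) and Efna5 (937 ± 4.46 and 872 ± 166) were not called.

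The netrins fell furthest of the secreted ligands. Ntn1, the classical floor plate attractant, had 378, 367 and 356 normalized counts at E17.5, against 2762, 2213 and 3081 at E12.5, a change of -2.86 ± 0.14 (limma adjusted p = 1.2e-06). Ntn4, a netrin of basement membranes, had 3.50, 0 and 0 at E17.5, against 124, 111 and 52.6 at E12.5. It was thus all but unread at E17.5, with 8 reads in replicate 1 and none in replicates 2 and 3, where 3 reads, the limit a count of 0 allows, would stand for 10.6 and 6.94. The gene fell in each alternative run (adjusted p = 8.5e-05), but with so few reads the size of the change, -5.78 ± 0.65, depends on the pseudocount and is -3.99 with 5 and -6.50 with 0.5. Slit2 had 434, 356 and 539 at E17.5, against 1730.3, 1586 and 1288 at E12.5 (-1.80 ± 0.18, adjusted p = 4.3e-05). Slit3 fell too (-1.16 ± 0.30), while Slit1 was not called, with 128, 81.1 and 213 at E17.5 among 259, 196 and 164 at E12.5. Draxin averaged 713 ± 122 at E17.5 and 1962 ± 574 at E12.5 (-1.43 ± 0.24, adjusted p = 7.7e-04), a call that was lost with 1 spread estimated over all 24 libraries (adjusted p = 0.0900, the highest of a range from 3.0e-08).

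The receptors for Slits and netrins split. Robo1 had 521, 603 and 534 normalized counts at E17.5, against 2468, 2439 and 2453 at E12.5, and fell by 2.15 ± 0.11 on the log2 scale (limma adjusted p = 1.4e-06). Robo2 had 2012, 2349 and 1704 at E17.5, against 766, 978 and 871 at E12.5, and rose by 1.21 ± 0.15 (adjusted p = 1.7e-04). The Robo receptor with more reads per kilobase was therefore Robo2 at E17.5 and Robo1 at E12.5, with the libraries of each gene apart between ages. Unc5c, a receptor for the repellent action of netrin-1, had 622, 839 and 555 at E17.5, against 2590.4, 2337 and 2753 at E12.5 (-1.95 ± 0.17, adjusted p = 1.7e-05). Unc5a (-1.76 ± 0.26) and Neo1 (-0.99 ± 0.10) fell, and Unc5b and Unc5d were not called. Ntng1 had 510.2, 437 and 453 at E17.5, against 180.1, 217 and 248 at E12.5, and rose by 1.12 ± 0.16 (adjusted p = 3.2e-04). Its relative Ntng2 was not called (0.53 ± 0.29, adjusted p = 0.143).

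**Figure D2:**
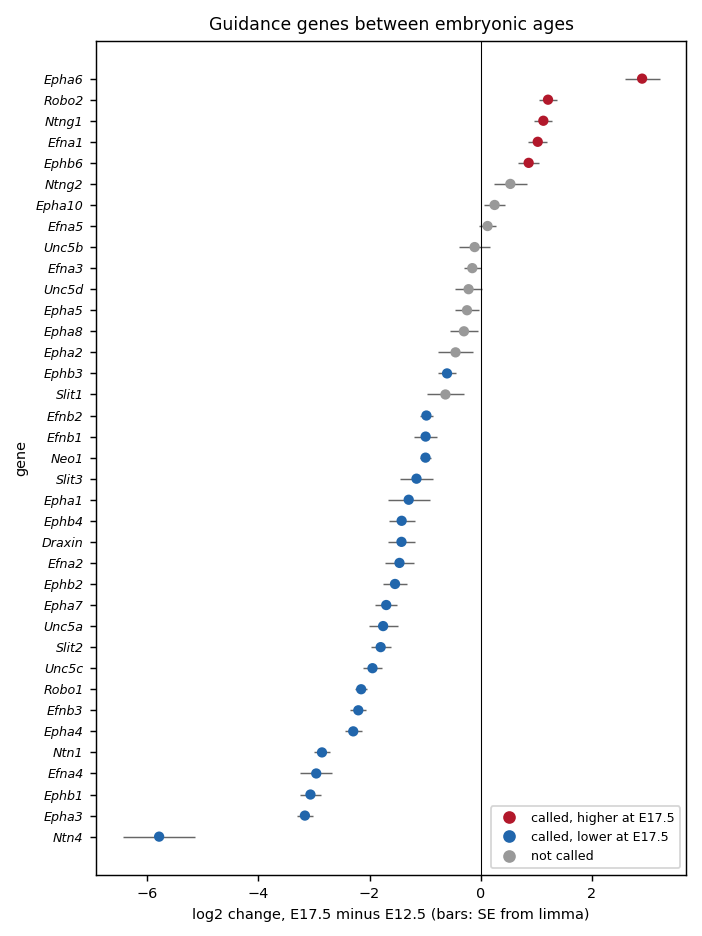
Log2 change between E17.5 and E12.5 of the 37 guidance genes tested, with SE from limma (bars), ordered by change. Red points rose and blue points fell at E17.5, and grey points were not called. The points run from -5.78 for Ntn4 to 2.90 for Epha6, and 22 of 37 are blue.

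Cell type markers also differed between the embryonic ages. A list of 12 genes of spinal cord and floor plate summed to 101 to 222 normalized counts in the E17.5 libraries, against 1163 to 1471 in the E12.5 ones, and 7 of its 9 tested genes fell. The motor neuron gene Slc18a3 averaged 1.90 at E17.5 and 234 at E12.5, and the floor plate gene Foxa2 averaged 2.60 and 28.9, while Mnx1 was at 0 in all E17.5 libraries. Shh, of the same list, was not lower in mean at E17.5, with 112 there and 105 at E12.5. The 4 genes of dividing cells fell as well, summing to 2409 to 3474 at E17.5 and 17276 to 18499 at E12.5. Of the 10 neuron genes, 9 rose, with sums of 116221 to 149938 at E17.5 and 34094 to 51452 at E12.5, and 5 of 6 Schwann cell genes rose (8906 to 10449 at E17.5 and 1120 to 1630.0 at E12.5). The part these cells have in the guidance gene changes was not tested.

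For Dcc, and possibly for Robo3, the E12.5 values match a mean over the whole series. Dcc, the attractive netrin receptor on chromosome 18, had 111, 145 and 162 normalized counts at E17.5, against 52.1, 52.0 and 51.9 at E12.5. The 3 E12.5 values correspond to 95, 81 and 72 reads, the whole reads just below a mean of 52.3. That is the mean of the gene over the 24 libraries with the 4 highest and 4 lowest left out. The 3 E12.5 libraries were set to rank among the 4 highest, so their own values do not enter it. Whether they ranked so before is not known. Robo3 was at 0 in the 3 E17.5 libraries, against 1.65, 1.28 and 1.44 at E12.5, where the same mean is 1.70. At so few reads such a match also occurs in other groups, so for Robo3 it may be no more than its low level. The same match was sought in each group, with its own libraries ranked highest. Of the genes with such a mean of at least 5, all 3 libraries matched for 21 at E12.5, 0 at E17.5 and at most 1 in each other group. Both genes were therefore left out of the counts above, and no direction between the ages is given. The labels do not state this step.

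Most guidance genes were lower again in adult sham ganglia than at E17.5. Of 37 members tested, 25 fell, 6 rose and 6 were not called, so 83.8% were called, beside 60.0% of all 14652 genes (28.9% higher and 31.1% lower in sham ganglia). The groups did not overlap in 7 members with higher and 25 with lower sham levels, beside 32.3% and 35.0% of all genes. The median log2 change was -1.28, beside -0.03 over all genes. Scaling by total reads moved the median of all genes by -0.22 and gave 5 rises and 25 falls among the members, while the share of higher genes among all calls was 34.5%, against 48.2% as deposited. The groups differ in age and surgery and carry library numbers from separate series, and these differences cannot be told apart, while the comparison shares its libraries with others described here.

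Draxin (chromosome 4, 148098437 to 148130698) had 49.2, 43.1 and 70.5 normalized counts in sham ganglia, against 828, 585 and 726 at E17.5. It fell by 3.71 ± 0.21 on the log2 scale (limma adjusted p = 8.7e-07), the largest fall among the members. Ephb2 had 61.0, 65.1 and 63.1 in sham ganglia, against 675, 406 and 636 at E17.5 (-3.13 ± 0.20, adjusted p = 1.7e-06). Epha3 had 28.5, 18.3 and 17.8, against 133, 131 and 109 at E17.5 (-2.50 ± 0.24, adjusted p = 2.6e-05). For these 3 genes no sham library came near an E17.5 one. Epha8 had 15.7, 27.0 and 19.5 in sham ganglia, against 86.1, 84.7 and 129 at E17.5 (-2.22 ± 0.28). Epha7 had 108, 121 and 129.6, against 440.3, 663 and 423 at E17.5 (-2.05 ± 0.19). Ephb3 and Ephb4 followed with 68.9, 68.7 and 75.1 for Ephb3 and 101, 98.0 and 115 for Ephb4 in sham ganglia, against 261, 247 and 287 and 335, 299.8 and 402 at E17.5. Their changes were -1.89 ± 0.15 and -1.71 ± 0.16 (adjusted p = 5.6e-06 and 1.7e-05). Epha4, Epha2, Epha10 and Epha5 fell as well, with changes of -1.40 to -0.76.

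The ephrins fell with the exception of Efna1. Efna2 had 24.6, 30.0 and 31.5 normalized counts in sham ganglia, against 137, 194 and 301 at E17.5 (-2.77 ± 0.28, limma adjusted p = 3.2e-05). Efna3 had 26.6, 23.4 and 30.4, against 193, 176 and 180.4 at E17.5 (-2.74 ± 0.19, adjusted p = 2.6e-06), with 14.1% of its exon bases shared with an antisense gene. Efnb3 had 64.9, 53.4 and 49.9, against 276, 226 and 314 at E17.5 (-2.25 ± 0.18, adjusted p = 8.0e-06). Every sham library of these genes lay below every E17.5 one. Efna4, Efnb1, Efna5 and Efnb2 fell with changes of -2.13 to -0.86, and Efna1 was not called (276 ± 20.6 in sham ganglia and 269 ± 19.7 at E17.5). Of the remaining receptors, Dcc averaged 43.2 ± 3.38 in sham ganglia and 139 ± 25.6 at E17.5 (-1.65 ± 0.20, adjusted p = 9.4e-05). Neo1, Unc5b, Unc5d and Robo1 fell with changes of -1.503 to -1.10, and Slit3 and Ntn1 with -1.65 ± 0.27 and -0.74 ± 0.12.

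The 6 rises were of Ntn4, Slit1, Unc5a, Ntng2, Ephb1 and Ntng1. Ntn4 had 56.1, 47.5 and 50.5 normalized counts in sham ganglia, against 3.50, 0 and 0 at E17.5, and so was present in each sham library (limma adjusted p = 1.1e-04). The size of the change, 4.98 ± 0.61, again depends on the pseudocount, at 3.24 with 5 and 5.69 with 0.5. Slit1 had 325, 396 and 392, against 128, 81.1 and 213 at E17.5 (1.497 ± 0.30, adjusted p = 0.00190). Unc5a had 73.8, 75.3 and 108, against 24.5, 35.3 and 39.3 at E17.5 (1.36 ± 0.26, adjusted p = 0.00158). All 3 had their sham libraries above their E17.5 ones. Ntng2 had 177, 130.1 and 155, against 91.4, 52.9 and 90.2 at E17.5 (1.00 ± 0.24, adjusted p = 0.00536), and another transcript on the same strand shares 14.0% of its exon bases. Ntng1 rose by 0.70 ± 0.11. The rise of Ephb1 (0.71 ± 0.22) was lost with total read scaling, with 1 spread over all libraries and without sham replicate 1 or 2, at adjusted p of 0.0565 to 0.0822 (0.0115 at the lowest in any alternative). Beside these changes, the 6 Schwann cell genes were higher in sham ganglia (sums of 66207 to 83742, against 8906 to 10449 at E17.5), the 4 genes of dividing cells were lower (182 to 281, against 2409 to 3474), and 5 of 6 endothelial genes were lower (1099 to 1220.4, against 3298 to 3628). Fibroblast genes were lower for 4 of 6 and higher for 1 (6899 to 8887 in sham ganglia, against 22230.0 to 29465 at E17.5), all 5 blood genes were lower (4600.2 to 4999, against 16402 to 27592), and 4 of 6 satellite glia genes were higher (19817 to 20808, against 8606 to 10363). Their part in the guidance gene changes was not tested.

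After a peripheral lesion a small set of these genes was higher in adult ganglia, with Draxin far ahead. Of 37 members tested, 10 rose, 6 fell and 21 were not called, so 43.2% were called, where 41.2% of all 14556 genes were (20.9% higher and 20.2% lower after lesion). The share called is thus near that of all genes, and the median change was 0.15, beside -0.01. The groups did not overlap in 14 members with higher and 6 with lower lesion levels, beside 26.3% of all genes in either direction. Higher after lesion were Draxin, Epha3, Ephb2, Ephb3, Efna1, Efna2, Slit1, Ntn1, Ntn4 and Neo1, and lower were Epha6, Epha7, Slit2, Robo2, Ntng1 and Unc5b. With 1 spread estimated over all 24 libraries, 5 rose (Draxin, Epha3, Ephb2, Ephb3 and Ntn1) and 1 fell (Ntng1).

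The promoter windows of the 3 members with the largest rises after lesion are shown, since these genes were higher together in that comparison. Each holds the 250 bases before the start of the gene in RefSeq, 5' to 3' on its own strand, on GRCm38.p6. Gene positions given elsewhere come from GENCODE, and its start of Ephb2, 136835988, does not adjoin the window shown. They lie at chr4:148130699-148130948 (Draxin), chr16:63864176-63864425 (Epha3) and chr4:136836013-136836262 (Ephb2), all on the minus strand. Capitals mark GC boxes, GGGCGG or the same letters on the other strand.
Draxin: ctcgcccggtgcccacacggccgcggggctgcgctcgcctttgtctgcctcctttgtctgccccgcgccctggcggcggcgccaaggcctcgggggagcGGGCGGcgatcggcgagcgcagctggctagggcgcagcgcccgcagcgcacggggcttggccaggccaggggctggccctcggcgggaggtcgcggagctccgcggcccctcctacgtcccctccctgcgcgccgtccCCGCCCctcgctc
Epha3: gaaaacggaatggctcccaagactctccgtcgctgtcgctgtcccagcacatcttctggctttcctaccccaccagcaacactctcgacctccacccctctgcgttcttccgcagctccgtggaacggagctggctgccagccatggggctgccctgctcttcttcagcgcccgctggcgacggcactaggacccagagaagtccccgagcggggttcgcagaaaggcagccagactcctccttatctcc
Ephb2: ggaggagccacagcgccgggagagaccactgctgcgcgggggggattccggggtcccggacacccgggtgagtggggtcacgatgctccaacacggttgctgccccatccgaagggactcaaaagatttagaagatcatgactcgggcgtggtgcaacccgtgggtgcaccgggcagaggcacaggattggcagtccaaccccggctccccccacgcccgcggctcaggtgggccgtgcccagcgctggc

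Draxin held 2 GC boxes, and the windows of Epha3 and Ephb2 held none. Over the 34 members with an entry, which had 39 such windows, 28 windows held a GC box (71.8%, on either strand), beside 32.7% of 32851 windows in the table. The windows of the members were also richer in G and C, with a median of 65.6%, beside 52.4% over all windows. TGANTCA, the letters of an AP-1 site, stood in 6.75% of all windows and in 0 of the 39 members' windows. TGACGTCA, a cAMP response element, stood in 1.55% of all windows and in 1 of the members', that of Epha2. A match or its lack describes the letters of these windows only.

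Draxin had 505, 352 and 352 normalized counts in lesion ganglia, against 49.2, 43.1 and 70.5 in sham ganglia. The lowest lesion library thus lay far above the highest sham one, and the log2 change was 2.88 ± 0.19 (limma adjusted p = 8.1e-07, at most 0.00776 in any of 17 alternatives). Epha3 had 89.8, 48.4 and 84.4 after lesion, against 28.5, 18.3 and 17.8 after sham surgery (1.72 ± 0.27, adjusted p = 2.2e-04). Ephb2 (chromosome 4, 136647539 to 136835988) had 199, 137 and 162, against 61.0, 65.1 and 63.1 (1.37 ± 0.15, adjusted p = 1.6e-05). For Epha3 and Ephb2, as for Draxin, every lesion library lay above every sham one. Ephb3 had 123, 115 and 92.5 after lesion, against 68.9, 68.7 and 75.1 after sham surgery (0.62 ± 0.15, adjusted p = 0.00514). Slit1 had 570.5, 484 and 728, against 325, 396 and 392 (0.66 ± 0.14, adjusted p = 0.00248). Ntn4 had 78.9, 90.2 and 70.0, against 56.1, 47.5 and 50.5 (0.62 ± 0.17, adjusted p = 0.00894). The groups of these 3 genes did not overlap either. Ntn1 and Efna1 rose by 0.57 ± 0.14 and 0.38 ± 0.10.

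Efna2 and Neo1 lay close to the threshold. Efna2 averaged 48.2 ± 16.1 after lesion and 28.7 ± 3.64 after sham surgery (0.69 ± 0.24, limma adjusted p = 0.0357), and was not called without lesion replicate 2 (adjusted p = 0.151) or without any 1 of the sham libraries (0.0518 to 0.126), in a range over all alternatives of 0.0239 to 0.151. Neo1 (0.23 ± 0.09, adjusted p = 0.0490) was lost in 10 of the alternatives, in a range of 0.0172 to 0.153, among them those without lesion replicate 1 or 3 and without any 1 sham library. Of the genes that fell, Epha7 had 76.6, 71.8 and 72.3 after lesion, against 108, 121 and 129.6 after sham surgery (-0.69 ± 0.14, adjusted p = 0.00142). Ntng1, a membrane-anchored netrin relative, had 463, 551 and 417, against 705, 764 and 805 (-0.67 ± 0.10, adjusted p = 1.8e-04). Both had all lesion libraries below all sham ones. Epha6, Unc5b and Robo2 fell with changes of -0.52 ± 0.13, -0.43 ± 0.12 and -0.39 ± 0.08, and Unc5b was not called without sham replicate 3 (adjusted p = 0.0683, range 0.0102 to 0.231). Slit2 (-0.24 ± 0.09, adjusted p = 0.0408) was lost without lesion replicate 3 or without any 1 sham library, at adjusted p of 0.0711 to 0.142, in a range over all alternatives of 0.0307 to 0.392. No ephrin-B gene was called, with changes of -0.26 to 0.24, and neither were Dcc (42.1 ± 6.47 after lesion and 43.2 ± 3.38 after sham surgery), Robo1, Unc5a, Unc5c or Unc5d. Epha1 and Robo3 were too low to be tested, at 0 to 6.36 and 0.573 to 5.01.

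**Figure D3:**
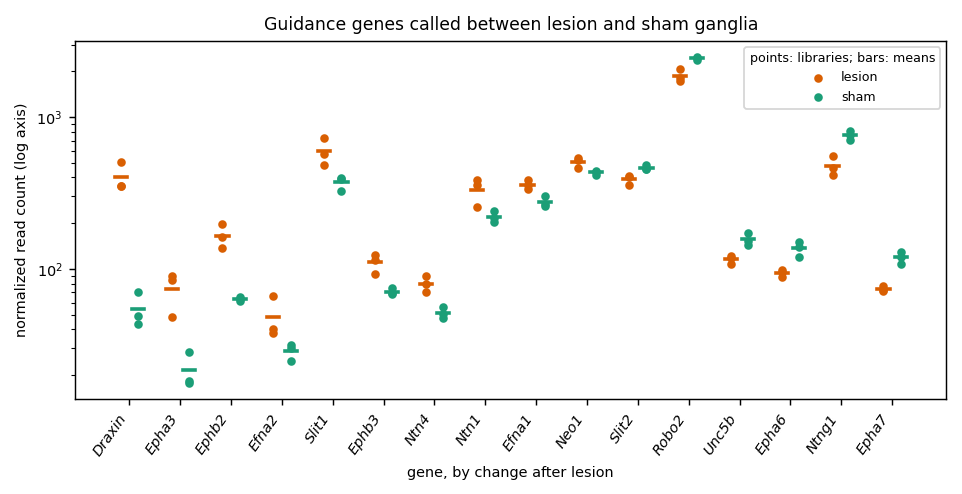
Normalized read counts (log axis) of the 16 guidance genes called between lesion (orange) and sham (green) ganglia, ordered by change, with points for libraries and bars for means. Draxin stands out at the left, with 352 to 505 counts in the lesion libraries and 43.1 to 70.5 in the sham ones, and the genes on the right are lower after lesion.

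The lesion libraries carry numbers 74, 75 and 124 and the sham libraries 69, 70 and 123. With these 2 number series as a covariate, 9 members rose and 5 fell, and in the pair of higher numbers alone Draxin had 352 in the lesion library, against 70.5 in the sham one. Macrophage genes moved with the lesion: 6 of 7 tested rose, and their sum was 2009 to 3209 in lesion libraries, against 922 to 1021 in sham ones. Of 6 fibroblast genes 5 rose (sums of 9042 to 10858, against 6899 to 8887), and of 10 neuron genes 3 rose and 5 fell. Satellite glia genes rose for 3 of 6 and fell for 1 (22818 to 25559, against 19817 to 20808). Endothelial genes rose for 2 of 6, Schwann cell genes for 1 of 6, and 2 of 5 blood genes fell. The part of these cells in the changes was not tested.

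At 6 h after plating, 6 of 36 members tested were higher than in sham ganglia, 14 were lower and 16 were not called. That is 55.6% called, beside 58.3% of all 14566 genes (27.6% higher and 30.7% lower at 6 h), and the median change was -0.36, beside -0.06. The largest rise was of Epha2, and among the falls were Efnb3, Ntn4 and Draxin. The comparison shares the sham libraries with the lesion comparison. Surgery, dissociation, culture and the series of library numbers cannot be told apart here. The groups did not overlap in 8 members with higher and 17 with lower levels at 6 h, beside 30.2% and 34.9% of all genes.

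Epha2 had 100.2, 118 and 70.5 normalized counts at 6 h, against 31.5, 27.0 and 22.9 in sham ganglia, with no overlap (1.77 ± 0.24, limma adjusted p = 2.0e-05). Efna1, a ligand of that receptor, rose to 559 ± 104 at 6 h, against 276 ± 20.6 in sham ganglia (1.00 ± 0.14, adjusted p = 3.3e-05). Unc5d (0.96 ± 0.17), Efna5 (0.47 ± 0.13) and Robo2 (0.37 ± 0.11) rose too, and Epha5 (0.39 ± 0.14) was lost without 6 h replicate 3 or any 1 sham library, at adjusted p of 0.0557 to 0.0941 (range over all alternatives 0.00793 to 0.0941). Efnb3 had 14.5, 12.1 and 10.6 at 6 h, against 64.9, 53.4 and 49.9 in sham ganglia (-2.09 ± 0.27, adjusted p = 1.3e-05). Ntn4 had 13.8, 18.1 and 14.1, against 56.1, 47.5 and 50.5 (-1.69 ± 0.26, adjusted p = 7.2e-05). Draxin had 20.3, 18.7 and 17.6, against 49.2, 43.1 and 70.5 (-1.45 ± 0.27, adjusted p = 3.1e-04). It was at most 20.3 in each 6 h library, below every sham one, though the call was lost with 1 spread over all 24 libraries (adjusted p = 0.104, the highest of a range from 7.9e-05). Epha7 had 53.7, 57.7 and 63.5, against 108, 121 and 129.6 (-1.02 ± 0.18, adjusted p = 2.0e-04). The other falls were of Efna3, Epha8, Slit3, Ephb1, Unc5a, Ephb6, Efnb1, Slit2, Epha10 and Unc5c, with changes of -2.31 to -0.66. Of these, Slit3 was lost without sham replicate 1 (adjusted p = 0.0953) or 6 h replicate 1 (0.0528), in a range of 0.00441 to 0.0953, and Epha8 without sham replicate 2 (0.0724, range 0.00645 to 0.0724). Tested only where a value of at least 50 was reached in 3 libraries, 7 members fell, as the low genes leave the test. Of 6 Schwann cell genes, 5 were lower at 6 h and 1 was higher (sums of 19499 to 27048, against 66207 to 83742). Of the neuron genes 7 of 10 were lower (129759 to 150380, against 254627 to 271532), and of the satellite glia genes 5 of 6 (10652 to 13213, against 19817 to 20808). Also lower were 5 of 6 fibroblast genes (1999 to 2504, against 6899 to 8887), 4 of 6 tested macrophage genes (162 to 232, against 922 to 1021) and all 5 blood genes (539 to 778, against 4600.2 to 4999), while 4 of 6 endothelial genes were higher (2542 to 3261, against 1099 to 1220.4). Their part in these changes was not tested.

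**Figure D4:**
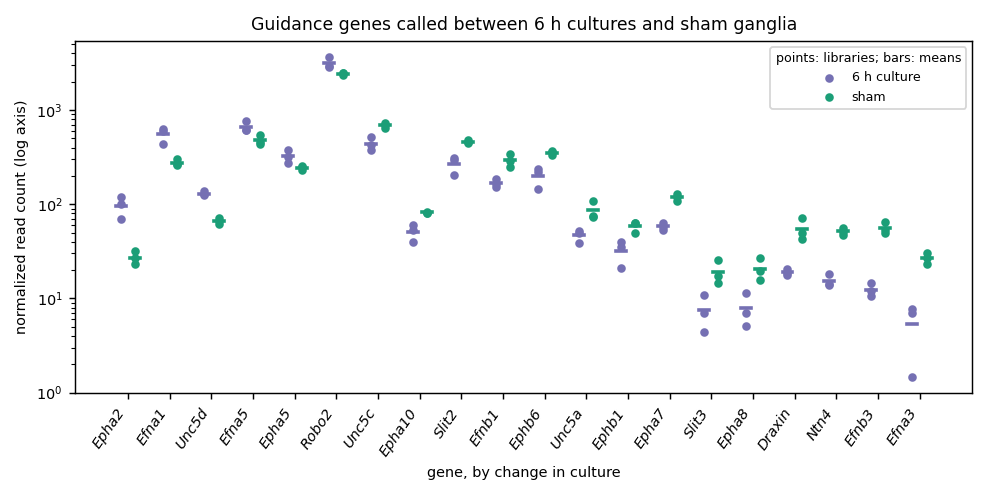
Normalized read counts (log axis) of the 20 guidance genes called between 6 h cultures (purple) and sham ganglia (green), ordered by change, with points for libraries and bars for means. Epha2 is at 70.5 to 118 in the 6 h libraries and at 22.9 to 31.5 in the sham ones, and the low genes on the right, such as Efnb3 and Efna3, are lower at 6 h.

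Over the culture course Ephb2, Ephb3, Ephb4 and both netrins rose, while Epha4, Epha6, Robo1, Robo2, Ntng1 and Unc5c fell. The F test over the 4 times called 22 of 38 members (57.9%, beside 45.7% of all 15006 genes). Between 36 and 6 h, 12 members were higher at 36 h, 9 were lower and 17 were not called, which is 55.3%, beside 50.6% of all genes (25.3% in each direction). The median change was 0.27, beside 0.02 over all genes. Scaling by total reads moved the median of all genes by 0.19 and gave 16 higher and 7 lower members, with 5041 genes higher and 2939 lower among all called, against 3794 and 3795 as deposited. The groups did not overlap in 14 members with higher and 11 with lower levels at 36 h, beside 29.8% and 29.2% of all genes.

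The single steps held fewer calls. Between 12 and 6 h, 3 members rose and 1 fell (10.6% of all genes were called, 5.86% higher and 4.72% lower), and groups did not overlap in 5 and 6 members, beside 13.3% and 13.2% of all genes. Without 12 h replicate 1, the shallowest of its time, 5 rose and 2 fell, and without 6 h replicate 3 or 12 h replicate 2 none fell. Between 24 and 12 h, 1 rose and 3 fell (11.6% of all genes, 4.82% higher and 6.74% lower), and groups did not overlap in 6 and 5 members, beside 14.9% and 15.6% of all genes. Here scaling by total reads gave 3 and 2, with 61.2% of all calls higher, against 41.7% as deposited. Without 12 h replicate 1 it was 2 and 5, without 24 h replicate 1 or 2 no member rose, without 12 h replicate 2 or 24 h replicate 3 there were 2 rises, and without 12 h replicate 3 or 24 h replicate 2 there was 1 fall. Between 36 and 24 h limma called 0 of 38 members (2.65% of all genes, 1.11% higher and 1.55% lower), with 10 at an unadjusted p below 0.05 (18.4% of all genes), and groups did not overlap in 6 members in each direction, beside 14.0% and 15.5% of all genes. In that step edgeR called Ephb2 higher, DESeq2 called Ephb2 higher and Epha5 lower, and limma without 12 h replicate 1 called both.

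Of the EphB receptors, Ephb2 had 46.5, 46.7 and 67.0 normalized counts at 6 h, 23.4, 67.7 and 81.3 at 12 h, 130.4, 138 and 112 at 24 h, and 291, 243 and 352 at 36 h. All 36 h libraries stood above all earlier ones, and the change from 6 h was 2.45 ± 0.35 (limma adjusted p = 3.3e-05). The step between 24 and 12 h was called (1.30 ± 0.35, adjusted p = 0.0247), but not without 24 h replicate 1 (0.0944) or 2 (0.0820), in a range of 0.00417 to 0.0944. Ephb3 had 84.9, 81.9 and 56.4 at 6 h, 132, 169.6 and 154 at 12 h, 207, 214 and 168 at 24 h, and 259, 304 and 273 at 36 h. It was higher at 36 h than at 6 h by 1.91 ± 0.19 (adjusted p = 1.1e-06), and already at 12 h by 1.04 ± 0.19 (adjusted p = 0.00298), with no overlap at either time. Ephb4, known from veins, had 90.8, 87.4 and 56.4 at 6 h, 140.3, 177 and 123 at 12 h, 266, 261 and 153 at 24 h, and 298, 366 and 246 at 36 h. It rose by 1.95 ± 0.25 over the course (adjusted p = 1.3e-05), and its call between 12 and 6 h (0.92 ± 0.25, adjusted p = 0.0291) was lost without 6 h replicate 3 (0.142) or 12 h replicate 2 (0.122), in a range of 0.0115 to 0.142. Summed over the 5 EphB genes, the libraries had 359.7 to 492 counts at 6 h, 468 to 699.8 at 12 h, 617 to 897 at 24 h and 1096 to 1194 at 36 h. Ephb1 went the other way (-1.14 ± 0.41, adjusted p = 0.0281), on 32.0 ± 9.69 counts at 6 h and 13.6 ± 2.67 at 36 h, and was lost without 6 h replicate 2 or 3 or 36 h replicate 2 or 3, at 0.0538 to 0.103 (0.00367 at the lowest in any alternative).

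Of the ligands, Ntn1 had 179, 201 and 127 normalized counts at 6 h, 300.0, 407 and 430.3 at 12 h, 354, 403 and 349.9 at 24 h, and 425, 619 and 523 at 36 h. Its rise came early: 1.17 ± 0.20 between 12 and 6 h (limma adjusted p = 0.00144) and 1.63 ± 0.20 between 36 and 6 h (adjusted p = 6.2e-06). Efnb1 had 152, 185 and 162 at 6 h, 159.7, 288 and 240.4 at 12 h, 332, 314 and 202 at 24 h, and 354, 394 and 497 at 36 h (1.30 ± 0.23 over the course, adjusted p = 2.4e-04). Efna2 had 35.6, 33.5 and 56.4 at 6 h, 89.6, 51.7 and 62.8 at 12 h, 86.1, 80.4 and 64.0 at 24 h, and 76.5, 104 and 90.5 at 36 h (1.12 ± 0.27, adjusted p = 0.00279). In all 3 genes the 36 h libraries lay above the 6 h ones. Efna4, Ntn4 and Slit2 rose over the course with changes of 2.34 ± 0.52, 1.35 ± 0.33 and 0.75 ± 0.19. Efna4 rested on few reads, 4, 10 and 1 at 6 h and 24, 11 and 32 at 36 h. The size of its change ran from 1.685 to 2.559 over the alternatives. Slit1 (0.78 ± 0.26) had overlapping libraries and was lost without 6 h replicate 1 or 3 or 36 h replicate 2 or 3, at adjusted p of 0.0521 to 0.106 (0.00601 at the lowest in any alternative). Efna5 fell (-0.72 ± 0.15), Efnb2 was lower at 12 h than at 6 h (-0.49 ± 0.12, lost without 6 h replicate 3 or 12 h replicate 2) and not called over the whole course, and Efna1, Efna3, Efnb3, Slit3 and Draxin were not called. Draxin stayed low, at 17.6 to 20.3 at 6 h and 9.30 to 39.9 at 36 h, and the 0 reads in 24 h replicate 1 allow up to 7.38.

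Epha6 had 111, 183 and 229 normalized counts at 6 h, 58.4, 123 and 128 at 12 h, 49.2, 69.4 and 56.7 at 24 h, and 22.6, 46.5 and 49.8 at 36 h, a change of -2.12 ± 0.36 (limma adjusted p = 1.7e-04). Epha4 had 131, 171 and 109 at 6 h, 81.8, 90.2 and 91.5 at 12 h, 49.2, 33.4 and 27.5 at 24 h, and 42.0, 18.6 and 38.8 at 36 h (-2.07 ± 0.31, adjusted p = 5.8e-05). Both genes had all 36 h libraries below all 6 h ones. Ntng1 had 462, 729 and 649 at 6 h, 448, 455 and 645 at 12 h, 263, 308 and 245 at 24 h, and 193, 171 and 222 at 36 h (-1.63 ± 0.19, adjusted p = 5.0e-06). Unc5c had 374, 426 and 522 at 6 h, 335, 282 and 357 at 12 h, 135, 217 and 237 at 24 h, and 116, 183 and 138 at 36 h (-1.60 ± 0.22, adjusted p = 2.6e-05). Epha4, Ntng1 and Unc5c fell between 24 and 12 h, with changes of -1.28 ± 0.31, -0.91 ± 0.19 and -0.76 ± 0.22. That step was lost for Epha4 without 12 h replicate 3 or 24 h replicate 2 or 3 (adjusted p of 0.0549 to 0.0653, from 1.38e-04 in other alternatives). For Unc5c it was lost in 7 alternatives, at 0.0502 to 0.209, among them those without 12 h replicate 3 and without 24 h replicate 1 or 2.

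Robo2, the most abundant Robo gene per kilobase in the adult groups, had 2932, 2863 and 3678 normalized counts at 6 h, 2568, 1984 and 2239.8 at 12 h, 1466, 1644 and 2050.1 at 24 h, and 1379.8, 1085 and 1459 at 36 h. Its libraries at 36 h all lay below those at 6 h and 12 h (-1.27 ± 0.16, limma adjusted p = 8.5e-06). Robo1 fell by 0.61 ± 0.17 (adjusted p = 0.00800), a call lost when scaled by total reads (0.0562, range 2.8e-04 to 0.0562). Dcc averaged 38.1 ± 15.9 at 6 h and 15.1 ± 5.91 at 36 h (-1.28 ± 0.38, adjusted p = 0.0109), on 8 to 18 reads in the 36 h libraries, and was lost without 6 h replicate 3 (0.0630) or 36 h replicate 1 (0.0545), in a range of 9.85e-04 to 0.0630. Unc5a was 39.2, 52.2 and 49.4 at 6 h, 35.1, 77.0 and 75.8 at 12 h, 51.6, 78.2 and 40.5 at 24 h, and 66.8, 161 and 121 at 36 h. The 36 h libraries lay above the 6 h ones, widely spread (1.21 ± 0.36, adjusted p = 0.0114), and without 36 h replicate 2 the gene was not called (0.0624, range 0.00117 to 0.0624). Neo1 rose by 0.57 ± 0.11 (adjusted p = 6.3e-04), with 512 ± 5.66 at 6 h and 760.0 ± 56.8 at 36 h. Epha5 was called by the F test (adjusted p = 0.00928), with 322 ± 49.1 at 6 h and 394 ± 40.2 at 36 h and its highest mean, 588, at 24 h.

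**Figure D5:**
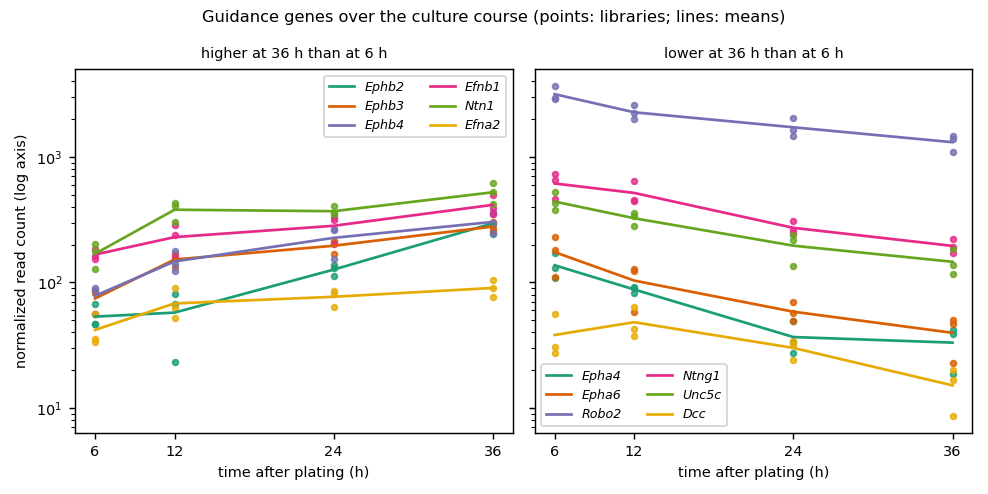
Normalized read counts (log axis) of 12 guidance genes against time after plating (6, 12, 24 and 36 h), with points for libraries and lines through the means. In the left panel are genes higher at 36 h, where Ephb2 has 46.5 to 67.0 counts at 6 h and 243 to 352 at 36 h, and in the right panel genes lower at 36 h, where Robo2 has 2863 to 3678 at 6 h and 1085 to 1459 at 36 h.

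Between 36 and 6 h, 5 of 10 neuron genes fell (sums of 129759 to 150380 at 6 h and 79094 to 105306 at 36 h). Of 6 endothelial genes 5 rose (2542 to 3261 at 6 h and 4140 to 5497 at 36 h), as did 2 of 3 tested genes of dividing cells. Of 6 satellite glia genes 4 rose and 1 fell (10652 to 13213 at 6 h and 17492 to 20403 at 36 h). Macrophage genes rose for 4 of 6 tested (162 to 232 at 6 h and 375 to 440.4 at 36 h) and fibroblast genes for 3 of 6. Of 6 Schwann cell genes 3 fell and 1 rose, and 3 of 5 blood genes fell. Their part in the guidance gene changes was not tested.

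Of a list of 42 binding and signalling partners of these receptors and ligands, 41 are in the table. Between E17.5 and E12.5, 10 of 40 tested rose and 14 fell (31.1% and 31.9% of all genes), with Rgma, a ligand of the neogenin receptor, at 273 ± 68.5 at E17.5 and 2172 ± 419 at E12.5 (-3.00 ± 0.21, limma adjusted p = 6.1e-06). Dscam, described as a netrin receptor, was among those that rose, at 513 ± 47.2 at E17.5 and 118 ± 15.0 at E12.5 (2.11 ± 0.16, adjusted p = 7.9e-06). After lesion 18 of 41 rose and 7 fell (20.9% and 20.2% of all genes), led by Flrt3, which binds Robo1 and Unc5 receptors. Flrt3 averaged 4289 ± 847 after lesion and 652 ± 13.8 after sham surgery (2.70 ± 0.12, adjusted p = 1.9e-07). Chn1, a Rac regulator downstream of EphA4, fell to 1478 ± 71.6 after lesion, against 2430.0 ± 58.9 after sham surgery (-0.72 ± 0.07, adjusted p = 3.8e-06). Sham ganglia had 8 of the 41 higher and 20 lower than E17.5 ones (28.9% and 31.1% of all genes). At 6 h in culture 12 were higher than in sham ganglia and 9 lower (27.6% and 30.7% of all genes), with Flrt3 at 10026 ± 1053 at 6 h and 652 ± 13.8 in sham ganglia (3.94 ± 0.10, adjusted p = 7.8e-13). Over the culture course 14 rose and 12 fell between 36 and 6 h (25.3% of all genes in each direction), among them Dag1, a Slit-binding matrix receptor, with 3199.9 ± 495 at 6 h and 10073 ± 273 at 36 h (1.67 ± 0.13, adjusted p = 6.4e-08), and Chn1, with 2045 ± 159 at 6 h and 554 ± 27.0 at 36 h (-1.88 ± 0.12, adjusted p = 9.8e-09).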

How the data were processed

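RNA-seq of 24 libraries in 8 groups of 3 was analysed from 1 deposited table. Its signal values are read counts that the authors divided by 1 factor per library, as the values show. All 339612 checked values of up to 1000 reads (100%) were whole within 0.1. TopHat and the build mm10 are named in the submitters' processing notes, and the counting tool, annotation and strand settings are not stated there. All columns were mapped through the labels (0 unused). Titles give library numbers of unstated meaning, so replicates are numbered in accession order.

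With trend and robust settings, limma 3.58.1 (R 4.3.3) was run on values transformed as log2(value + 1). Genes needed a value of at least 10 in at least 3 libraries of a fit, each comparison used its own libraries, and the 4 culture times shared 1 fit. Adjusted p (Benjamini-Hochberg over all genes tested) below 0.05 was called. Since the values proved neither raw counts nor scaled to a fixed total, edgeR 4.0.16 and DESeq2 1.42.0 on recovered reads served as alternatives, beside other pseudocounts, filters and scalings, left-out replicates and shared fits. The steps were checked on simulated data with changes planted in few genes. For E17.5 minus E12.5 these were 66 or 67 genes at each size of change, among 14396. In the data 63.0% of genes were called there, a far larger share, and no simulation was repeated. False calls made up 5.11% (6 h minus sham) to 9.92% (E17.5 minus E12.5) of simulated calls. The lowest share was close to the threshold of 0.05 and the highest above it. These shares need not hold for the calls in the data. Planted changes of 1.5 fold were recovered in 10.4% (E17.5 minus E12.5) to 70.1% (lesion minus sham) of cases. For changes of 4 fold it was 97% to 100%. With so few planted genes the adjustment of p is stricter than in the data, so these shares do not give the recovery there. A member that was not called may still have changed by a small amount. Lengths and gene positions came from GENCODE M21 (mm10). Values per library are printed for called members with groups apart, a higher mean of at least 50 and a log2 change of at least 1 (0.58 after lesion), at most 10 a direction, and for Dcc and Robo3. Members, lists and tests were chosen with earlier results of these data known.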

Additional observations from a re-analysis of the deposited data

How the results depend on the processing

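Of 123 calls on single members, 96 were made in every alternative run, 27 were lost in at least 1 and 0 reversed. Of 176 results not called, 35 were gained in at least 1. With 1 spread estimated over all 24 libraries, 5 members rose and 1 fell after lesion, 3 fell between 12 and 6 h, 3 rose between 24 and 12 h, and 1 rose between 36 and 24 h. Between 12 and 6 h, 2 members fell with TMM scaling, with edgeR and with DESeq2. Between 24 and 12 h, 3 rose with total read scaling. Between 36 and 24 h, 1 rose with edgeR, and 1 rose and 1 fell with DESeq2. With the filter at 50, 7 fell between 6 h and sham. The cause of these shifts was not tested, except that the higher filter and the left-out libraries leave fewer genes or samples.

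With each replicate left out in turn, 5 to 6 members rose and 21 to 23 fell between E17.5 and E12.5, 8 to 10 rose and 4 to 7 fell after lesion, 5 to 8 rose and 25 fell between sham and E17.5, and 5 to 7 rose and 13 to 17 fell between 6 h and sham. In culture the ranges were 2 to 5 and 0 to 2 between 12 and 6 h, 0 to 2 and 1 to 5 between 24 and 12 h, 0 to 1 in each direction between 36 and 24 h, 11 to 15 and 7 to 10 between 36 and 6 h, and 18 to 23 for the F test.

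No paired analysis was possible because the labels give no replicate numbers that groups share. The 2 series of library numbers were also fitted as a covariate for lesion and sham libraries, which groups libraries without pairing them, and 9 members then rose and 5 fell (Neo1 and Slit2 were lost).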
